A study of Mus musculus with 31 samples.

Results

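The interferon-stimulated genes described here are a list of 41 genes known to be switched on by interferons, chosen by name, of which the 39 with a probe set of that single symbol were measured among the 18193 genes of the array. Isg15 and Ifi44 are not analysed here. Interferons are secreted proteins that warn cells of viruses and of stray nucleic acid. A type I interferon binds a cell-surface receptor, the kinases Jak1 and Tyk2 phosphorylate STAT proteins, and Stat2 together with Irf9 binds the interferon-stimulated response element in the promoters of target genes. The targets include sensors of foreign nucleic acid, proteins that block viral replication, and factors such as Irf7 that amplify the response. In the retina, microglia, Müller glia and neurons can all carry such a response, and it is known from degeneration, infection and autoimmune inflammation of the eye.

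Total RNA of both retinas of 1 mouse was hybridised to 1 Affymetrix array per mouse for 31 mice aged 14 days (P14) or 28 days (P28). The mice were wild type (+/+), lacked the nuclear receptor gene Rorb (Rorb-/-), were wild type with the transgene CrxpNrl (+/+;CrxpNrl), or lacked Rorb and carried the transgene (Rorb-/-;CrxpNrl). CrxpNrl is known as a transgene in which the promoter of Crx, active in photoreceptor precursors, drives Nrl, the gene that directs precursors to become rods. Each group had 4 mice apart from P28 +/+;CrxpNrl with 3. Replicates were different mice, and the labels give no strain, sex, litter or batch, nor which part of Rorb is deleted. Rorb read lower in every array labelled Rorb-/- (8.15 to 9.98) than in every other array (10.23 to 11.18), all on the log2 scale. Nrl, which the transgene is known to express, read 12.89 to 13.37 in +/+ mice with the transgene and 13.09 to 13.36 in those without it, so that it did not set these groups apart. The mean log2 signal of listed cone markers did. It ran from 9.66 to 9.79 in P14 +/+ and from 5.32 to 7.27 in P14 +/+;CrxpNrl. At P28 these ranges were 9.92 to 10.10 and 5.32 to 5.56. In Rorb-/- mice at P14, Nrl ran from 8.78 to 10.55, and in Rorb-/-;CrxpNrl mice from 11.29 to 12.28, while at P28 the same groups spanned 8.70 to 9.97 and 9.39 to 11.86. The overlap at P28 came from mouse 3 with the transgene (9.39), and without that mouse 33 in place of 34 members were higher than in +/+ mice with the transgene at P28. Array medians lay between 5.84 and 5.91, lower quartiles between 3.98 and 4.05. With 3 or 4 arrays in a group, precision is limited by their number. Because whole retinas were measured, more cells of a type and more RNA per cell cannot be told apart in any value given here.

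Many of the members share a short promoter sequence. RefSeq promoters in build GRCm38.p6, which run from 250 bases before to 50 bases after a gene's start, were matched for 30 of the 39 measured members. The core of the interferon-stimulated response element, the letters GAAA, any pair of bases and GAAA again on either strand, stood in the promoter of 14 of these 30 (46.7%) and in that of 3.99% of 27025 genes. The core of the gamma-activated site, TTCNNNGAA, which STAT dimers bind, stood in 7 of the 30 (23.3%) and in 9.55% of all genes. The members with the first motif were Ifih1, Gbp3, Gbp2b, Gbp2, Cxcl10, Trim30a, Ifitm3, Ddx60, Bst2, Stat2, Rsad2, Eif2ak2, Ifit3 and Ifit1. A match describes the letters in this window and is not a measured binding site. The 250 bases before the start follow, 5′ to 3′ on the gene's own strand, for 5 members with a match that belong to different families or carry a pair of matches, with the response element core in capitals.

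Ifit1 (chr19:34640639-34640888, plus strand): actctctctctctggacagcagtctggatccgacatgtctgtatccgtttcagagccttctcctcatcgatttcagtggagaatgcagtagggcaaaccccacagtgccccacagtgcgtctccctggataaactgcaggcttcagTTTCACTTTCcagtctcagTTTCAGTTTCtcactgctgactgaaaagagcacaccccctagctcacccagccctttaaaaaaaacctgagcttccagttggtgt
Ifit3 (chr19:34583279-34583528, plus strand): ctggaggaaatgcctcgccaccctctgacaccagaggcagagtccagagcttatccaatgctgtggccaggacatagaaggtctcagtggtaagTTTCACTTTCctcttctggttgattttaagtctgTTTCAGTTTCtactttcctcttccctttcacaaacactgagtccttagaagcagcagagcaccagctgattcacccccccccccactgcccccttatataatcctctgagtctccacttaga
Gbp2 (chr3:142620413-142620662, plus strand): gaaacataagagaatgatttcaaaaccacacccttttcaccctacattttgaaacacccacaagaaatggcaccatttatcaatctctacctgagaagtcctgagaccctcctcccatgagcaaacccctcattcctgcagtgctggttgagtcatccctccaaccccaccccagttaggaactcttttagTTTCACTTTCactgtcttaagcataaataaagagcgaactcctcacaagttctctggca
Ddx60 (chr8:61927837-61928086, plus strand): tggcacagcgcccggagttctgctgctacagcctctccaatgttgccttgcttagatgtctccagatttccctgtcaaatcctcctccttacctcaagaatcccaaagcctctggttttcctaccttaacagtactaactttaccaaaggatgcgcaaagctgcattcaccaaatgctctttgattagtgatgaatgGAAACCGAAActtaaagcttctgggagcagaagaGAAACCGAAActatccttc
Rsad2 (chr12:26456453-26456702, minus strand): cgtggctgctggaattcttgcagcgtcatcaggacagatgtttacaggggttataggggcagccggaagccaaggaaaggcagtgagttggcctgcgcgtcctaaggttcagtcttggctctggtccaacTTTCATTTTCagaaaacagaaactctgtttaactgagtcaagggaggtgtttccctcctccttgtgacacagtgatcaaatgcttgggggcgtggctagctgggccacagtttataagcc

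In Ifit1 the cores begin 104 and 85 bases before the start and in Ifit3 156 and 122 bases before it. Gbp2 has 1 core 59 bases before the start and Rsad2 1 core 120 bases before it. In these 4 promoters the capitals begin with TTTC, the element as read on the other strand, whereas Ddx60 carries its cores, 53 and 19 bases before the start, in the forward direction. Members with the core had a median log2 difference between Rorb-/- and +/+ of 1.37 at P14 and 1.98 at P28 (n = 14 genes), against 1.09 and 1.40 for matched members without it (n = 16 genes). Without and with the core, the medians with the transgene were 0.67 and 0.39 at P14 and 1.85 and 2.38 at P28. These medians describe genes in the same mice and were not tested.

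The mean log2 signal of the 39 members was raised in every retina without Rorb. It read 5.36, 5.31, 5.23 and 5.41 in the P14 +/+ mice and 5.48, 5.36, 5.46 and 5.41 in the P28 +/+ mice. With the transgene, +/+ mice read 5.32, 5.31, 5.30 and 5.23 at P14 and 5.35, 5.30 and 5.35 at P28. All mice with Rorb thus lay close together, from 5.23 to 5.48. In P14 Rorb-/- mice the mean read 6.24, 7.32, 5.51 and 6.90 for mice 1 to 4, from just above the controls to above every P28 Rorb-/- mouse. P28 Rorb-/- mice read 7.18, 7.21, 6.99 and 7.04 and lay close together. Rorb-/- mice with the transgene read 5.65, 6.24, 5.74 and 5.61 at P14, and 7.0, 7.20, 7.54 and 7.63 at P28. The groups without Rorb therefore did not overlap their controls at either age, and with the transgene the P14 and P28 mice did not overlap each other.

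**Figure D1:**
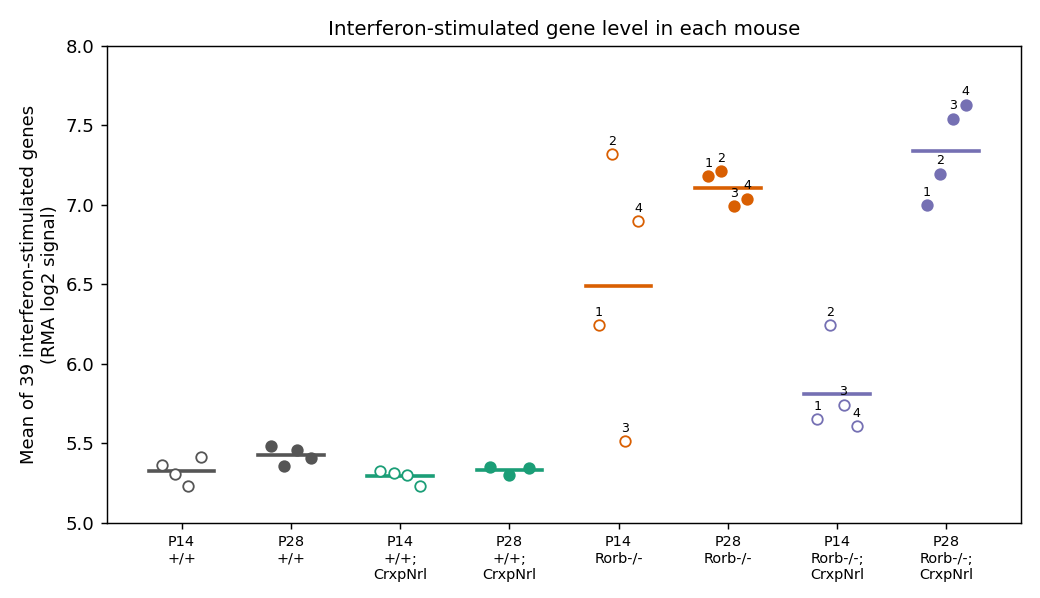
Each point is the mean log2 signal of the 39 measured interferon-stimulated genes in 1 mouse, with open points for P14, filled points for P28, numbers for the replicate and bars for the group mean. The P14 Rorb-/- mice spread from 5.51 to 7.32, whereas the P28 Rorb-/- mice lie between 6.99 and 7.21 and all mice with Rorb between 5.23 and 5.48.

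Without the transgene, loss of Rorb raised most members at both ages. At P14, 29 of 39 were higher in Rorb-/- than in +/+ at adjusted p under 0.05 (limma, Benjamini-Hochberg over all genes), against 16.0% of all genes, and 0 were lower against 13.9% of all genes (0 also at unadjusted p under 0.05). The median difference was 1.23 log2 units for the members and -0.01 for all genes. At P28, 32 of 39 were higher (15.9% of all genes) and 0 lower (15.2%, and 0 at unadjusted p), with a median of 1.73. Of the members called, 22 at P14 (2.67% of all genes) and 27 at P28 (3.41%) were higher by at least 2-fold. The 4 mice of each group did not overlap for 15 members at P14 (15.5% of all genes higher in this way) and for 32 at P28 (15.6%). Without mouse 2 of P14 Rorb-/-, 23 members were called, and Oasl1, Mx2, Bst2, Gbp3, Trim30a and Tor3a no longer passed (adjusted p 0.0792 to 0.237), with a median of 0.93. Without mouse 3, 32 were called and the median was 1.50. When the fit held only the compared groups, 6 of the P14 calls were lost and 0 of the P28 calls. Those lost at P14 were Oasl1, Mx2, Gbp3, Trim30a, Lgals3bp and Tor3a.

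**Figure D2:**
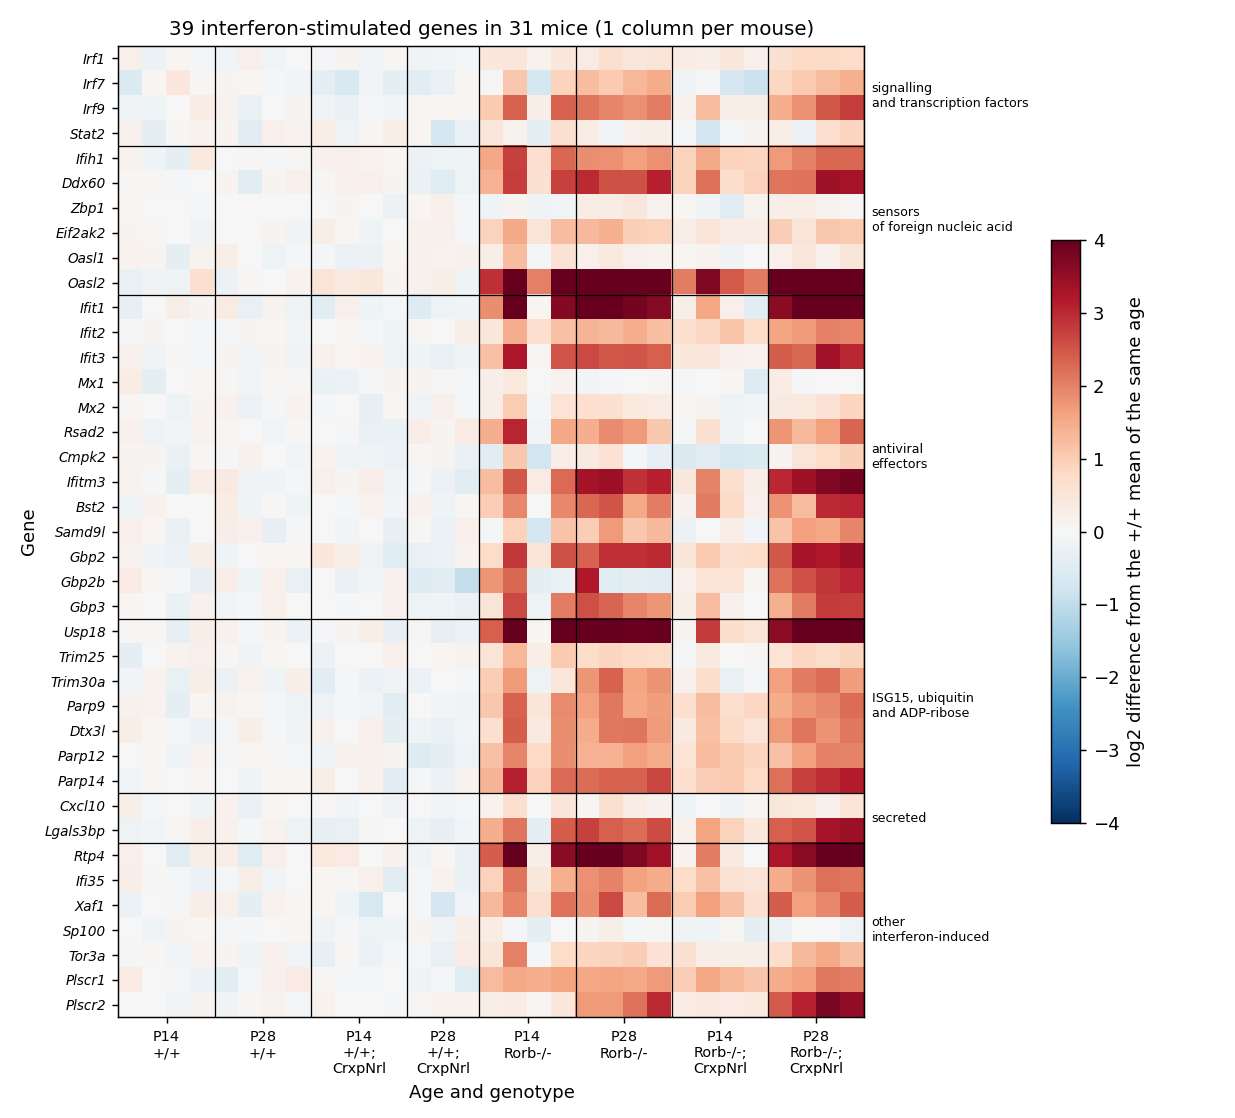
Each row is 1 gene, grouped by role, and each column 1 mouse, coloured by the log2 difference from the mean of the +/+ mice of the same age, with the colour scale limited at -4 and 4. Nearly all rows are red in the P28 mice without Rorb, the P14 Rorb-/- columns differ from each other, and the columns of mice with Rorb are pale.

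Of the 4 members that carry or transcribe the signal, 2 rose at P14 and 3 at P28. Irf9, the DNA-binding partner of Stat2, read 5.99, 5.98, 6.16 and 6.43 in P14 +/+ and 7.19, 8.51, 6.42 and 8.50 in P14 Rorb-/-. At P28 it read 6.61, 6.19, 6.50 and 6.57 in +/+ and 8.59, 8.41, 8.29 and 8.50 in Rorb-/-. The groups overlapped at P14, where mouse 3 lay just under the highest control, and were apart at P28 (1.51 ± 0.32 SE, adjusted p = 0.000413, and 1.98 ± 0.32, adjusted p = 1.19e-05). Irf7, which amplifies type I interferon production, read 6.36, 7.39, 5.61 and 7.21 in P14 Rorb-/- against 5.78 to 6.73 in P14 +/+, so that 2 mice were above and 1 below every control (0.34 ± 0.26, adjusted p = 0.374). In P28 Rorb-/- Irf7 lay between 7.33 and 7.76 in all 4 mice, above 6.15 to 6.38 in +/+ (1.27 ± 0.26, adjusted p = 0.000262). Irf1, a factor that interferon gamma induces, read 6.92, 6.50, 6.81 and 6.68 in P14 +/+ and 7.15, 7.18, 6.86 and 7.17 in P14 Rorb-/-, and 6.61, 6.94, 6.62 and 6.72 and 7.05, 7.38, 7.17 and 7.23 at P28. It rose by under 1 log2 unit at both ages, overlapping at P14 and not at P28 (0.36 ± 0.10 and 0.48 ± 0.10, adjusted p = 0.0038 and 0.000191). Stat2 read 6.40, 6.09, 5.57 and 6.59 in P14 Rorb-/- and 6.13, 5.60, 5.99 and 6.09 in P14 +/+, and did not pass at P14 (0.21 ± 0.23) or P28 (0.16 ± 0.23).

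Among the 6 sensors of foreign nucleic acid, 5 rose at P14 and 5 at P28. Oasl2, an oligoadenylate synthetase-like protein, was 10.8-fold higher at P14 and 17.8-fold higher at P28. Its log2 signal read 4.98, 5.15, 5.06 and 5.92 in P14 +/+ and 8.19, 9.93, 7.30 and 9.43 in P14 Rorb-/-, without overlap (3.43 ± 0.38, adjusted p = 2.52e-08). At P28 it read 5.33, 5.64, 5.59 and 5.73 in +/+ and 9.79, 9.89, 9.56 and 9.67 in Rorb-/- (4.15 ± 0.38, adjusted p = 5.57e-10). Ddx60, a helicase that assists RNA sensing, read 3.53, 3.54, 3.41 and 3.49 in P14 +/+, below the lower quartile of the arrays, and 4.89, 6.27, 4.11 and 6.24 in P14 Rorb-/-. The groups did not overlap at P14 (1.89 ± 0.35, limma adjusted p = 0.000106), and the difference at P28 was 2.80 ± 0.35 (limma adjusted p = 2.56e-07). Since the controls lay in the dim range, these differences may be understated. A dimmer probe set of Ddx60 gave 0.79 and 1.05. Ifih1, the cytosolic sensor of long double-stranded RNA, read 5.35, 5.03, 4.84 and 5.61 in P14 +/+ and 6.75, 7.96, 5.88 and 7.51 in P14 Rorb-/-, and 7.43, 7.39, 7.21 and 7.39 in P28 Rorb-/- against 5.49 to 5.63 in P28 +/+. The groups did not overlap and the difference was of like size at both ages (1.82 ± 0.25 and 1.79 ± 0.25, adjusted p = 1.56e-06 and 1.83e-06). Eif2ak2, the kinase that stops translation on double-stranded RNA, rose by 1.05 ± 0.16 and 1.15 ± 0.16. Oasl1 was called at P14 (0.49 ± 0.17, adjusted p = 0.0304), with 1 mouse at 5.70 and the others between 4.38 and 5.04 against 4.10 to 4.61 in +/+, and not at P28 (0.23 ± 0.17). Zbp1, a sensor of Z-form nucleic acid, was called at P28 (0.30 ± 0.10, adjusted p = 0.0263), and not without +/+ mouse 1 (adjusted p = 0.0546) or Rorb-/- mouse 3 (adjusted p = 0.0940).

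The 13 antiviral effectors showed 9 rises at P14 and 10 at P28. Ifit1, which binds foreign RNA caps, read 3.71, 4.03, 4.29 and 4.16 in P14 +/+ and 5.89, 8.57, 4.14 and 7.71 in P14 Rorb-/-. Mouse 3 was within the controls while mouse 2 was at the level of the P28 mice (2.53 ± 0.53, limma adjusted p = 0.000413). The controls lay near the lower quartile of the arrays, so that this difference may be understated. At P28 Ifit1 read 4.73, 4.10, 4.53 and 4.20 in +/+ and 8.62, 8.77, 8.21 and 8.01 in Rorb-/-, without overlap (4.01 ± 0.53, adjusted p = 5.94e-07, 16.2-fold). Ifitm3, a membrane protein that blocks viral entry, read 7.95, 7.76, 7.43 and 8.08 in P14 +/+ and 9.03, 10.29, 8.15 and 10.05 in P14 Rorb-/- (1.58 ± 0.33, adjusted p = 0.000398). In P28 Rorb-/- it reached 11.16, 11.24, 10.71 and 10.93 against 7.67 to 8.19 in +/+ (3.19 ± 0.33, adjusted p = 7.15e-09). Ifit1 and Ifitm3 were therefore apart from their controls at P28 in every mouse, and at P14 in all mice but mouse 3 for Ifit1. Gbp2, a guanylate-binding protein, read 4.23, 3.94, 3.84 and 4.32 in P14 +/+ and 4.81, 6.92, 4.61 and 6.64 in P14 Rorb-/-. The groups did not overlap (1.66 ± 0.34, adjusted p = 0.000263). Gbp2 read 6.80, 7.38, 7.37 and 7.43 in P28 Rorb-/- against 4.26 to 4.53 in +/+ (2.80 ± 0.34, adjusted p = 1.13e-07). Ifit3, Bst2 (tetherin, which holds virions at the cell surface) and Gbp3 rose by 1.74 ± 0.36, 1.21 ± 0.39 and 1.25 ± 0.38 at P14 and by 2.50 ± 0.36, 2.09 ± 0.39 and 2.15 ± 0.38 at P28. The P14 calls of Bst2 and Gbp3 ended without Rorb-/- mouse 2 or mouse 4. Rsad2 (viperin) and Ifit2 rose at both ages by 0.94 to 1.54, and Mx2 by 0.44 ± 0.16 and 0.49 ± 0.16, a call that ended without any 1 of +/+ mice 1, 2 and 3 or Rorb-/- mice 2 and 4 at P14, and without +/+ mouse 2 or Rorb-/- mice 1 or 2 at P28. Samd9l read 5.85, 6.82, 5.17 and 7.01 in P14 Rorb-/- around 5.61 to 6.10 in +/+, and was called at P28 (1.26 ± 0.26, adjusted p = 0.000278).

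Mx1, Cmpk2 and Gbp2b passed at neither age without the transgene. Mx1, an antiviral GTPase, lay between 2.68 and 3.57 in all 31 mice, below every array's lower quartile, so that its level is not resolved. Cmpk2, a mitochondrial nucleotide kinase whose gene lies beside Rsad2, read 6.51, 8.02, 6.16 and 7.19 in P14 Rorb-/- against 6.67 to 7.05 in +/+, with a difference of 0.04 ± 0.25 (adjusted p = 0.929). At P28 it read 7.31, 7.52, 6.88 and 6.61 against 6.83 to 7.12 (0.14 ± 0.25, adjusted p = 0.732). Gbp2b is described with the transgene.

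All 7 measured members that act on ISG15, ubiquitin or ADP-ribose passed at both ages. Usp18, the protease that removes ISG15 and restrains the type I receptor, read 3.95, 3.95, 3.56 and 4.14 in P14 +/+ and 6.29, 9.04, 3.99 and 8.11 in P14 Rorb-/- (2.96 ± 0.61, adjusted p = 0.000364). In mouse 3 Usp18 lay within the controls, and the 3 others were above every control. At P28 it read 8.23, 8.33, 7.96 and 8.02 in Rorb-/- against 3.82 to 4.23 in +/+ (4.09 ± 0.61, limma adjusted p = 4.47e-06). Since the controls were dim, the differences of Usp18 at both ages may be understated. Parp14, a mono-ADP-ribosyltransferase, read 4.52, 4.71, 4.63 and 4.68 in P14 +/+ and 6.0, 7.73, 5.56 and 6.89 in P14 Rorb-/-, without overlap (1.91 ± 0.27, adjusted p = 2e-06). It read 7.12, 7.24, 7.25 and 7.57 in P28 Rorb-/- against 4.72 to 4.98 (2.40 ± 0.27, limma adjusted p = 3.5e-08). A dimmer probe set of Parp14 gave 0.22 and 0.58. Trim30a, a tripartite motif ubiquitin ligase, read 4.30, 4.57, 4.12 and 4.70 in P14 +/+ and 5.40, 6.12, 4.21 and 4.89 in P14 Rorb-/- (0.73 ± 0.26, adjusted p = 0.031). That call ended without any 1 of +/+ mice 1 and 3 or Rorb-/- mice 1 and 2 (0.41 without Rorb-/- mouse 2, adjusted p = 0.212) and when the other groups were left out of the fit. At P28 it read 3.86, 4.23, 3.93 and 4.32 in +/+ and 5.84, 6.44, 5.66 and 5.88 in Rorb-/- (1.87 ± 0.26, adjusted p = 1.22e-06). Parp9 and its partner Dtx3l, a ubiquitin ligase, rose by 1.45 ± 0.24 and 1.32 ± 0.28 at P14 and by 1.74 ± 0.24 and 1.85 ± 0.28 at P28. Parp12 rose by 1.45 ± 0.19 and 1.47 ± 0.19, and Trim25, the ligase that activates the RNA sensor RIG-I, by 0.79 ± 0.15 at both ages.

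Of the 2 secreted products, Lgals3bp rose and Cxcl10 did not pass. Lgals3bp, a galectin-binding glycoprotein, read 5.74, 5.85, 5.99 and 6.22 in P14 +/+ and 7.40, 8.08, 5.55 and 8.37 in P14 Rorb-/-, so that mouse 3 was below every control (1.40 ± 0.37, adjusted p = 0.00391, and 0.0531 when the other groups were left out of the fit). It read 8.83, 8.51, 8.35 and 8.73 in P28 Rorb-/- against 5.89 to 6.27 (2.50 ± 0.37, adjusted p = 3.45e-06). Cxcl10, the chemokine that draws activated T cells, read 4.57, 5.08, 4.43 and 4.91 in P14 Rorb-/- and 4.67, 4.38, 4.43 and 4.24 in P14 +/+ (0.32 ± 0.13, adjusted p = 0.0622). At P28 it read 4.46, 5.03, 4.69 and 4.57 against 4.57, 4.14, 4.48 and 4.38 (0.29 ± 0.13, adjusted p = 0.0862). Cxcl10 thus overlapped its controls at both ages.

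The 7 remaining measured members gave 5 rises at P14 and 6 at P28. Rtp4, a receptor chaperone that interferon induces, read 4.65, 4.43, 3.98 and 4.70 in P14 +/+ and 6.87, 8.57, 4.69 and 8.05 in P14 Rorb-/- (2.60 ± 0.50, adjusted p = 0.000133). It read 8.70, 8.71, 8.33 and 7.98 in P28 Rorb-/- against 4.16 to 4.89 in +/+, without overlap (3.80 ± 0.50, adjusted p = 4.9e-07). A dimmer probe set of Rtp4 gave 0.33 and 0.35. Xaf1, a promoter of apoptosis, read 6.03, 6.26, 6.18 and 6.52 in P14 +/+ and 7.53, 8.19, 6.89 and 8.43 in P14 Rorb-/-, without overlap (1.51 ± 0.28, adjusted p = 0.00011). With the mean of its probe sets this P14 difference was 1.13 and did not pass (adjusted p = 0.0716). In P28 Rorb-/- Xaf1 read 8.16, 8.93, 7.51 and 8.53 against 5.89 to 6.50 (2.0 ± 0.28, adjusted p = 1.96e-06). Plscr1, a phospholipid scramblase, was alike in the 4 P14 Rorb-/- mice, at 7.38, 7.65, 7.59 and 7.69 against 5.88 to 6.44 in +/+ (1.45 ± 0.15, adjusted p = 1.09e-08). Mouse 3, the lowest of its group for 36 members, was not so for Plscr1. Ifi35 rose by 1.23 ± 0.23 and 1.73 ± 0.23 and Tor3a by 0.79 ± 0.25 and 0.83 ± 0.25. At P14 the call of Tor3a ended without Rorb-/- mouse 2 (0.38, adjusted p = 0.122) and when the other groups were left out of the fit. Sp100, a nuclear body protein, lay between 3.16 and 3.83 in all 31 mice, below the lower quartile of every array, and passed at neither age (-0.04 ± 0.10 and 0.08 ± 0.10).

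The spread between mice was itself a feature of P14 Rorb-/-. For 32 of the 39 members the SD between mice was larger in this group than in each of the other 7, with a median SD of 0.83 against 0.124 for all genes in the same group. In the other groups the median SD of the members was 0.155 to 0.357. SEs and p-values given here pool the spread of all 8 groups, so for these 32 members they understate it in P14 Rorb-/- and tend to overstate it in groups of smaller spread. Hence a gene has the same SE at both ages without the transgene. Mouse 2 was the highest of the 4 for 31 members and mouse 3 the lowest for 36. Mouse 3 exceeded every P14 +/+ mouse for 15 members, against 33, 37 and 35 for mice 1, 2 and 4. For all genes the corresponding shares were 31.3%, 30% and 28.3% in mice 1, 2 and 4 and 30.4% in mouse 3. In the other mice without Rorb, 34 to 36 members exceeded the controls in P28 Rorb-/- (28.5% to 30.4% of all genes), 25 to 32 in P14 Rorb-/- mice with the transgene (32.3% to 33.6%) and 35 to 37 in P28 Rorb-/- mice with it (33.5% to 39.2%). Summed markers of microglia and macrophages read 6.37, 6.27, 6.19 and 6.08 as mean log2 signal in P14 Rorb-/- mice 1 to 4, so that mouse 3 was not the lowest of the 4. Rod markers read 9.87, 9.92, 10.90 and 11.16 in the same mice. Prph2, which encodes a disc protein of photoreceptors, read 5.39, 4.94, 11.04 and 5.09, so that mouse 3 stood apart. Mouse 3 of P28 Rorb-/- read 11.25 for Prph2 and the others 5.07 to 5.59. It was the lowest of its group in the mean of the members, at 6.99 close to mouse 4 at 7.04. Mouse 4 was the lowest for 14 members and mouse 3 for 13. Prph2 also varied within +/+ mice, at 7.32, 12.50, 12.61 and 12.71 at P14 and 6.66 to 8.86 at P28, whose means of the members lay close together. In +/+ mice with the transgene Prph2 read 6.46 to 6.75 at P14 and 9.10 to 12.78 at P28. In Rorb-/- mice with it, Prph2 read 4.47 to 7.76 and 4.17 to 5.87. Of these, the lowest in the mean of the members was mouse 4 at P14, with the lowest Prph2, and mouse 1 at P28, with the highest Prph2. Without P28 Rorb-/- mouse 3, 31 members were higher at P28, with a median of 1.76. The part of Prph2 or of what it moves with in the members' levels was not tested.

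**Figure D3:**
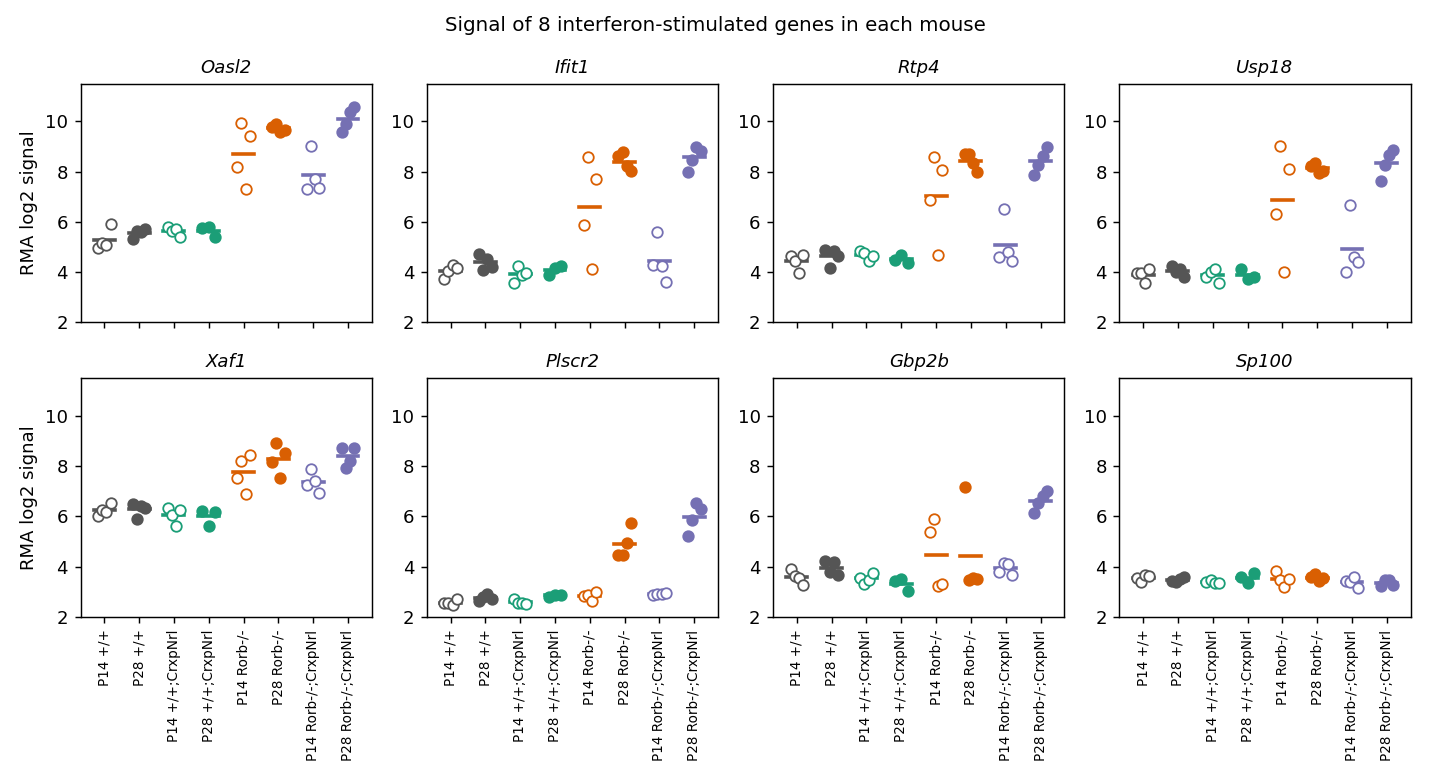
Log2 signal of 8 interferon-stimulated genes in each mouse (open points P14, filled points P28, bars group means), with 1 panel per gene. Ifit1, Rtp4 and Usp18 spread over several log2 units in P14 Rorb-/-, Gbp2b is high in only 1 of the 4 P28 Rorb-/- mice, and Sp100 is flat.

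With the transgene, fewer members differed at P14 than at P28. Between Rorb-/- and +/+ mice that both carried it, 11 of 39 members were higher at P14 (16.3% of all genes) and 0 lower (13.8%, and 0 at unadjusted p), with a median of 0.42. At P28, 34 were higher (20.7% of all genes) and 0 lower (15.9%, and 0 at unadjusted p), with a median of 2.04. At P14 the mice did not overlap for 20 members higher (16.2% of all genes) and for 1 lower (14.5%), Cmpk2, which read 6.36, 6.49, 6.28 and 6.34 without Rorb and 6.71 to 7.06 with it (-0.46 ± 0.25, adjusted p = 0.169). At P28 they did not overlap for 33 members (19.6%). The 11 members raised at P14 were Oasl2 (2.21 ± 0.38), Xaf1, Plscr1 (1.26 ± 0.15), Parp9 (1.06 ± 0.24), Ddx60 (1.05 ± 0.35), Ifih1 (0.90 ± 0.25), Parp14 (0.87 ± 0.27), Ifit2 (0.87 ± 0.14), Parp12 (0.86 ± 0.19), Ifi35 (0.78 ± 0.23) and Irf1 (0.32 ± 0.10). The call of Xaf1 (1.31 ± 0.28) rests on the probe set used, since its other probe set had a difference of -1.06. Those of Ddx60, Ifi35, Parp14 and Irf1 ended without certain single mice (limma adjusted p 0.0518 to 0.143), and that of Ddx60 also with the mean of its probe sets. Ifit1 read 4.27, 5.59, 4.24 and 3.60 in P14 Rorb-/- mice with the transgene against 3.59 to 4.26 in +/+ mice with it (0.50 ± 0.53, adjusted p = 0.549). Usp18 read 4.02, 6.68, 4.61 and 4.40 against 3.57 to 4.14 (1.05 ± 0.61, adjusted p = 0.219), and Rtp4 4.59, 6.50, 4.81 and 4.44 against 4.45 to 4.83 (0.42 ± 0.50, adjusted p = 0.602). In these genes mouse 2 stood above the other 3, and it was the highest of its group for 28 members. When the fit held only these compared groups, 18 members were higher and 1 lower at P14. Without the transgene the same setting lost 6 of the P14 calls. The gap between the P14 counts of members with and without the transgene thus depends in part on the pooled spread.

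At P28, 28 of the 34 members called with the transgene were higher by at least 2-fold (4.56% of all genes). Ifit1 read 7.98, 8.46, 8.98 and 8.83 against 3.87 to 4.23 in +/+ mice with the transgene (4.47 ± 0.57, adjusted p = 3.13e-07). Usp18 read 7.61, 8.26, 8.65 and 8.85 against 3.72 to 4.11 (4.46 ± 0.66, adjusted p = 3.28e-06), and Oasl2 9.57, 9.90, 10.37 and 10.57 against 5.40 to 5.80 (4.45 ± 0.41, adjusted p = 7.24e-10). The controls of Ifit1 and Usp18 lay near the lower quartile of the arrays, so that their differences may be understated. In these 3 genes the lowest mouse without Rorb lay more than 3 log2 units above the highest mouse with it. Stat2 and Cxcl10, which passed at neither age without the transgene, were called here (0.69 ± 0.24, adjusted p = 0.0278, and 0.44 ± 0.14, adjusted p = 0.0135). Both calls ended without transgenic +/+ mouse 2 (adjusted p 0.0517 to 0.189), and that of Stat2 also without +/+ mouse 3 or without Rorb-/- mice 3 or 4. Mx1, Cmpk2, Oasl1, Sp100 and Zbp1 were not called.

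In +/+ retinas no member passed the test between mice with and without the transgene. Of 39, 0 were higher and 0 lower at P14 (limma; 0.0165% and 0.110% of all genes), and 0 and 0 at P28 (limma; 0.0220% and 0.198%), with 0 members at unadjusted p under 0.05 in either direction and age. The mean of the members differed by -0.04 at P14 and -0.10 at P28. The other probe set of Xaf1, which did not stand for the gene in these tests, was higher with the transgene by 0.84 at P14 and 1.11 at P28.

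In retinas without Rorb the transgene went with lower average levels at P14 but not at P28. The mean of the members overlapped at P14, from 5.51 to 7.32 without the transgene and from 5.61 to 6.24 with it. Rorb-/- mouse 3 lay below every mouse with the transgene. At P14, 7 members were lower in Rorb-/- mice with the transgene than in those without it (3.25% of all genes) and 0 higher (2.05%, and 0 at unadjusted p), with a median of -0.60, which was -0.30 without Rorb-/- mouse 2 and -0.88 without mouse 3. They were Ifit1 (-2.15 ± 0.53), Rtp4 (-1.96 ± 0.50), Ifit3 (-1.44 ± 0.36), Rsad2 (-1.38 ± 0.35), Parp14 (-1.03 ± 0.27), Eif2ak2 (-0.70 ± 0.16) and Trim25 (-0.70 ± 0.15), with adjusted p from 0.00374 to 0.0185. This count depended on single mice: without Rorb-/- mouse 3 it was 26, without mouse 2 it was 2, without mouse 4 it was 3, and without transgenic mice 2 or 4 it was 12 or 4. When the other groups were left out of the fit it was 0. All 7 overlapped between the groups, since Rorb-/- mouse 3 lay below the highest mouse with the transgene. With the mean of a gene's probe sets Eif2ak2, Rsad2 and Parp14 were no longer called, the other probe set of Parp14 having a difference of -0.11. At P28, 3 members were higher with the transgene (11.7% of all genes) and 0 lower (7.47%, and 0 at unadjusted p), with a median of 0.18 (0.07 without transgenic mouse 4 and 0.34 without transgenic mouse 1): Gbp2b, Plscr2 and Ifit2. These comparisons share their Rorb-/- mice with the comparison of Rorb-/- and +/+. The test of whether the Rorb difference itself depended on the transgene called 0 members higher (0.396% of all genes) and 0 lower (1.08%) at P14 by limma, with 0 and 11 at unadjusted p, a median of -0.47 and a lowest adjusted p of 0.112. Without P14 Rorb-/- mouse 3 it called 9 lower, with a median of -0.80, without mouse 2 it called 0, with a median of -0.21, and without transgenic mouse 2 it called 1. At P28 it called 1 higher (2.95% of all genes), Gbp2b, and 0 lower (2.52%, and 0 at unadjusted p), and it called 2 higher without transgenic Rorb-/- mouse 1 or mouse 2.

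Gbp2b, a guanylate-binding protein gene next to Gbp2 on chromosome 3, varied between mice in another way. It read 5.36, 5.88, 3.22 and 3.31 in P14 Rorb-/- and 7.17, 3.46, 3.55 and 3.49 in P28 Rorb-/-, against 3.27 to 3.91 and 3.66 to 4.22 in +/+. In P28 Rorb-/- mice with the transgene it was high in all 4, at 6.13, 6.55, 6.82 and 7.01, against 3.02 to 3.51 (3.30 ± 0.60, adjusted p = 5.82e-05). The Rorb difference was thus 2.84 ± 0.82 larger with the transgene at P28 (adjusted p = 0.0373), a call that ended without any 1 of 11 mice (adjusted p 0.0519 to 0.0905). Gbp2 itself was high in all 4 P28 Rorb-/- mice, mouse 1 being the lowest of them at 6.80. Gbp2b, Gbp2 and Gbp3 are close relatives, as are Oasl1 and Oasl2, Ifit1 to Ifit3 and Mx1 and Mx2, and cross-hybridisation of their probes was not tested.

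Plscr2, a relative of Plscr1, was called at P28 and not at P14. It read 2.85, 2.85, 2.64 and 3.0 in P14 Rorb-/- against 2.47 to 2.69 in +/+ (0.27 ± 0.21, adjusted p = 0.378), and 4.47, 4.46, 4.93 and 5.75 in P28 Rorb-/- against 2.62 to 2.90 (2.15 ± 0.21, adjusted p = 1.81e-09). With the transgene it read 2.88, 2.93, 2.90 and 2.96 at P14 and 5.22, 5.84, 6.54 and 6.31 at P28 in mice without Rorb. Since the P14 and control values lie below the lower quartile of the arrays, these rises may be understated. Plscr1 had 91.7% of its P28 log2 difference at P14.

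Members changed with age in mice without Rorb. In +/+ mice 0 members were higher (5.77% of all genes) and 0 lower (7.94%) at P28 than at P14 by limma, with 1 higher and 0 lower at unadjusted p. In +/+ mice with the transgene the counts were 0 higher (2.65%) and 0 lower (7.20%), again with 1 and 0 at unadjusted p. When only the ages compared entered the fit, these counts of higher members were 2 and 5. In Rorb-/- mice 9 members were higher at P28 (6.15% of all genes) and 0 lower (8.80%, and 1 at unadjusted p): Ddx60, Gbp2, Ifit1, Ifit3, Ifitm3, Irf7, Lgals3bp, Plscr2 and Trim30a. That count was 4 without P14 mouse 3, 6 without P14 mouse 1 or P28 mouse 1, 20 without P14 mouse 2, 14 without P14 mouse 4 and 2 when the other groups were left out of the fit. In Rorb-/- mice with the transgene 35 members were higher at P28 (13.6%) and 0 lower (15.3%, and 0 at unadjusted p), with a median of 1.24, and 34 did not overlap between the ages (10.8% of all genes). Ifit1 (4.14 ± 0.53), Rtp4 (3.33 ± 0.50), Usp18 (3.41 ± 0.61) and Plscr2 (3.06 ± 0.21) were among these rises.

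Tested as a difference of differences, the Rorb effect was larger at P28 than at P14 for 1 member without the transgene (1.41% of all genes), Plscr2 (1.88 ± 0.29, adjusted p = 0.000513), and lower for 0 (1.31%, and 0 at unadjusted p). Without P14 Rorb-/- mouse 2 or mouse 4 it was larger for 3. With the transgene it was larger for 26 of 39 (8.58% of all genes) and smaller for 0 (3.95%, and 0 at unadjusted p), with a median of 1.38. Ifit1 (3.97 ± 0.78, adjusted p = 0.00117), Rtp4 (3.50 ± 0.73, adjusted p = 0.00199), Usp18 (3.41 ± 0.90, adjusted p = 0.0119) and Ifitm3 (2.99 ± 0.48, adjusted p = 0.000164) were among them. Leaving out 1 mouse at a time gave 21 to 26. Stat2 and Cmpk2 were also counted, with a negative P14 difference that was not called. Whether the growth with age differed between mice with and without the transgene was not tested. Among members called at both ages without the transgene, Ifih1 had 102% of its P28 log2 difference at P14, Trim25 101%, Parp12 98.4%, Rsad2 96.7%, Tor3a 94.7%, Plscr1 91.7% and Eif2ak2 90.8%. Among those called at P28 and not at P14, Samd9l had 25.9% and Irf7 26.3%, and Trim30a, called at both, had 39.2%.

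**Figure D4:**
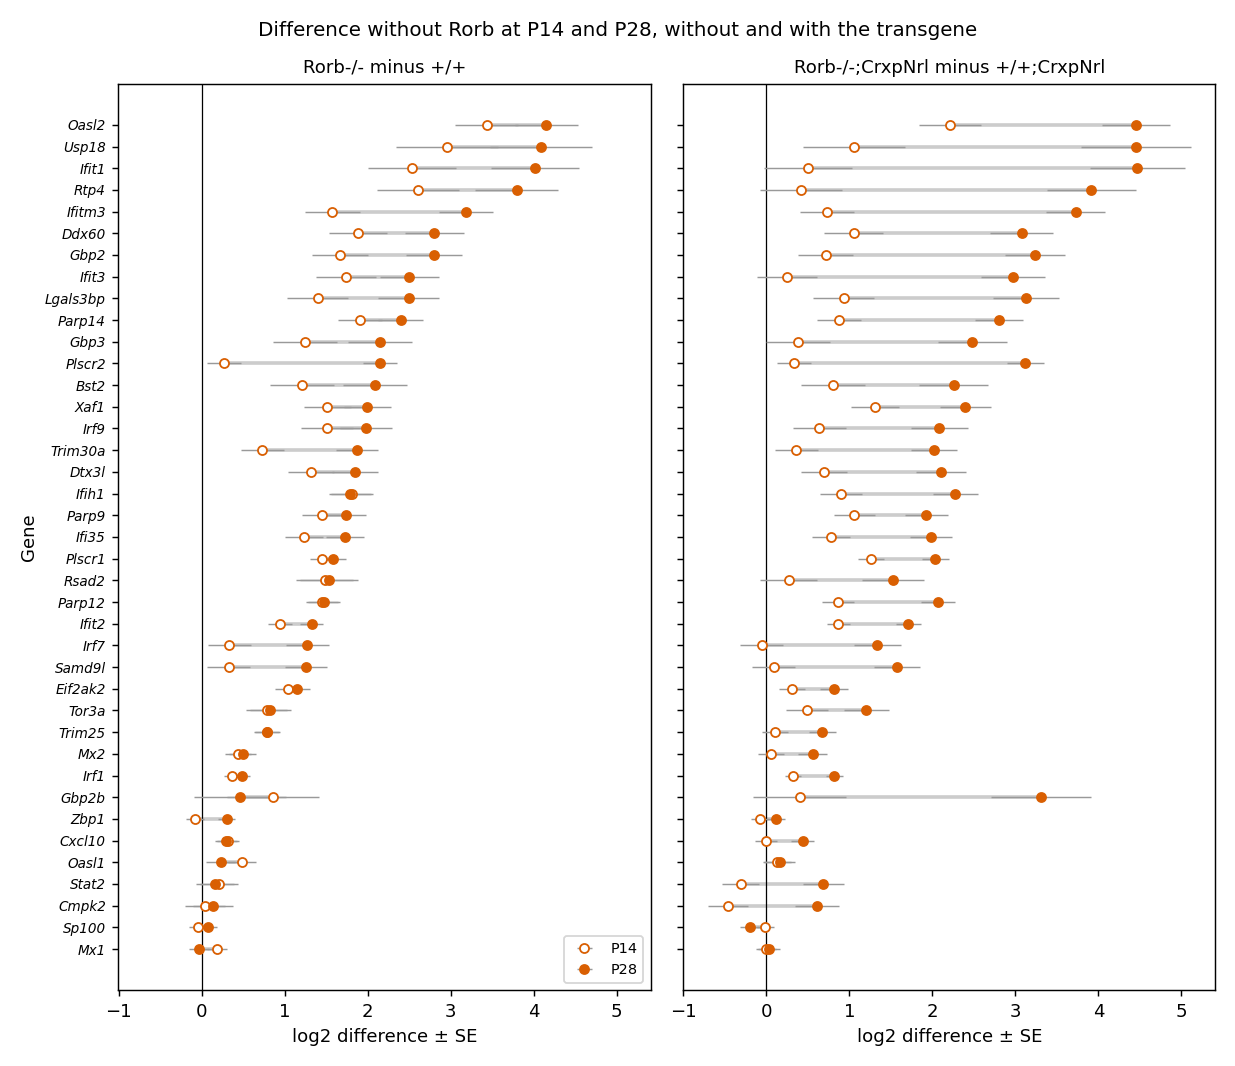
Log2 difference between mice without and with Rorb for each of the 39 genes, with open points for P14, filled points for P28 and bars for the SE, on the left without and on the right with the transgene. On the left the P14 and P28 points of most genes lie near each other, with medians of 1.23 and 1.73, and on the right they are far apart, with medians of 0.42 and 2.04.

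Other genes of the interferon pathway gave mixed results, to be read against the 16.0% and 15.9% of all genes that were higher, and the 13.9% and 15.2% that were lower, at P14 and P28 without the transgene. Of 18 listed interferon genes 10 were measured, and at neither age was 1 of them higher without Rorb, whether the mice carried the transgene or not. Ifnb1 read 3.55 to 3.97 in P14 Rorb-/- and 3.78 to 3.83 in P14 +/+, at or below the lower quartile of the arrays, and Ifng read 2.66 to 2.79 and 2.77 to 3.17, so that neither is resolved at this signal. Ifna1 fell at P14 (-0.37 ± 0.11, adjusted p = 0.0105) and Ifna9 at P28 (-0.24 ± 0.09, adjusted p = 0.0438). Of 10 measured receptors, kinases and STATs, 3 rose and 1 fell at P14 and 2 rose and 1 fell at P28. Stat3 rose by 0.67 ± 0.12 and 0.74 ± 0.12, Ifnar2, a chain of the type I receptor, by 0.33 ± 0.10 and 0.37 ± 0.10, and Il10rb by 0.30 ± 0.11 at P14. Ifnar1, the other chain of that receptor, did not pass (0.20 ± 0.10 and 0.07 ± 0.10). Of 17 measured sensors and adaptors that act before interferon, 3 rose and 0 fell at P14 and 5 rose and 2 fell at P28, the rises at P14 being near the share of all genes, among them Ddx58, which encodes RIG-I (1.15 ± 0.24 and 1.54 ± 0.24), and Tlr3 (0.77 ± 0.19 and 0.66 ± 0.19). Irf3, which switches on Ifnb1, was lower at P28 (-0.44 ± 0.12, adjusted p = 0.0048). Ddx58 read 5.94, 7.26, 5.52 and 6.85 in P14 Rorb-/- against 5.07 to 5.49 in +/+, the same order of mice as for Usp18. Of 7 inhibitors of the pathway, Socs3 rose by 3.78 ± 0.24 at P14 and 3.72 ± 0.24 at P28, Ptpn1 rose by 0.27 ± 0.09 and 0.41 ± 0.09, and Socs1 did not pass at P14 (0.03 ± 0.09) and was lower at P28 (-0.25 ± 0.09). With the transgene the rise of Socs3 was 1.17 ± 0.24 and 1.67 ± 0.26.

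Without the transgene, genes of antigen presentation by MHC class I rose for 11 of 13 measured genes at P14 (16.0% of all genes) and 13 of 13 at P28 (15.9%). With it, 7 and 11 rose (16.3% and 20.7% of all genes). B2m, the light chain of every class I molecule, read 8.48, 8.66, 7.91 and 8.57 in P14 +/+ and 10.17, 9.96, 8.66 and 10.19 in P14 Rorb-/- (1.34 ± 0.27, adjusted p = 0.00025). It read 11.36, 11.02, 10.97 and 11.36 in P28 Rorb-/- against 8.23 to 8.64 (2.67 ± 0.27, adjusted p = 4.65e-09). The heavy chain genes H2-D1 and H2-K1 were called at P28 (2.24 ± 0.83, adjusted p = 0.0402, and 1.89 ± 0.47, adjusted p = 0.00248) with mice spread from 9.87 to 10.52 and 9.49 to 10.24 against 5.60 to 9.07 and 6.78 to 8.48. Of MHC class II genes, 0 of 6 were called at P14 (limma; 0 at unadjusted p) and 1 at P28, Cd74 (0.95 ± 0.14). Of 38 other interferon-stimulated genes measured, 21 rose and 0 fell at P14, and 24 rose and 1 fell at P28, with Gbp6 (2.23 ± 0.31 and 2.89 ± 0.31), Irgm1 (1.89 ± 0.35 and 2.26 ± 0.35) and Ifi27 (0.65 ± 0.24 and 2.42 ± 0.24). The mean of these 38 genes was 5.70, 6.38, 5.38 and 6.04 in P14 Rorb-/- mice 1 to 4, the order of mice seen in the members. Inflammatory genes under NF-kB control were mixed, with 3 of 18 higher and 2 lower at P14 and 2 higher and 3 lower at P28, shares near those of all genes. Vcam1 rose by 1.33 ± 0.17 and 2.44 ± 0.17, Osmr was lower at P14 (-1.87 ± 0.22), and Tnfaip3 fell by 3.16 ± 0.15 and 2.93 ± 0.15.

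Markers of other cells moved with the groups. Their counts are to be read against the shares of all genes called. Without the transgene 16.0% and 15.9% of all genes were higher and 13.9% and 15.2% lower at P14 and P28. With it, 16.3% and 20.7% were higher and 13.8% and 15.9% lower. Of 16 measured microglia and macrophage markers, 12 rose at P14 and 9 at P28 without the transgene and 12 and 13 with it, and none fell. As a mean of log2 signals they ran from 5.51 to 5.57 in P14 +/+, from 6.08 to 6.37 in P14 Rorb-/-, and from 6.24 to 6.72 in P14 Rorb-/- mice that carried the transgene. At P28 the corresponding ranges were 5.13 to 5.29 for +/+, 5.70 to 5.92 for Rorb-/-, and 5.92 to 6.10 for Rorb-/- with the transgene. The microglial mean was thus higher at P14 than at P28 in +/+ mice and in both genotypes without Rorb. Group means of the interferon-stimulated genes at P14 and P28 were 5.33 and 5.43 in +/+, with overlapping mice. They were 6.49 and 7.11 in Rorb-/-, where P14 mouse 2 (7.32) lay above every P28 mouse, and 5.81 and 7.34 in Rorb-/- with the transgene. Müller glia markers rose for 5 of 11 and fell for 2 at P14, and rose for 7 at P28 and fell for 0. Rod markers fell for 7 of 9 at both ages, from 12.85 to 13.05 in all mice with Rorb, and cone markers rose for 7 of 8. In P28 Rorb-/- mice with the transgene rod markers read 12.32, 12.03, 9.84 and 10.63 in mice 1 to 4, whose interferon-stimulated means were 7.0, 7.20, 7.54 and 7.63. Markers of T, NK and B cells were called in 0 of 12 genes at either age without the transgene (limma; 0 higher and 1 lower at unadjusted p at P14, 0 and 2 at P28), with group ranges between 4.09 and 4.33, near the lower quartile of the arrays. Neutrophil markers lay between 4.02 and 4.23, with 1 of 7 lower at P14, and plasmacytoid dendritic cell markers rose for 2 of 6 and fell for 1 at P14 and rose for 3 and fell for 1 at P28. The genes that rose included Irf8 and Tcf4 at both ages, and Irf8 is also known from microglia. Pigment epithelium markers fell for 8 of 10 at P14 and rose for 3 at P28, and blood vessel markers fell for 7 of 9 at P14 and 4 at P28. Of 3 red blood cell markers 1 fell at P14 and 0 at P28. The neutrophil, plasmacytoid dendritic cell and red blood cell markers are too few to set their counts apart from the shares of all genes. The part of these cell types in the rise of the interferon-stimulated genes was not tested.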

How the data were processed

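Total RNA of both retinas of each of 31 mice was hybridised to Affymetrix arrays, with 5 ug of RNA labelled per array. The deposited values are log2 signals per probe set, made by the authors with RMA, whose version is not given in the sources used here, per the submitters' processing notes. RMA brings arrays to a common distribution, so a change shared by all genes would not show. Array maxima were 14.1 to 14.3, and array pairs correlated at 0.961 to 0.995. Control probe sets and those with several symbols or none were left out (34945 remained). The probe set of highest average signal stood for its gene, which gave 18193 genes. The mean of the members is the mean of their log2 values.

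A linear model in limma took all 8 groups together, with moderated variances that follow signal, and p-values were adjusted by Benjamini-Hochberg over all genes. A call is an adjusted p under 0.05. Values in each mouse are given by rule for up to 3 members per role with the largest difference without the transgene and for members called at neither age. Other pathway genes are named by rule from fixed lists, up to 3 per list by size of difference. Members, lists and tests were chosen with earlier results of these data known, and values of Samd9l, Plscr1, Oasl1, Ddx58, B2m and Prph2 were added after they were seen. Alternatives were a shift to a common median, quantile normalization, averaging a gene's probe sets, dropping probe sets of shared sequence, dropping the dimmest 40% of genes, no variance trend, array weights, a replicate block, fits to the compared groups alone, a 2-fold minimum and each mouse left out. To see whether mice of equal replicate number are paired, their deviations from group means were correlated. These were above 0.1 for all pairs between P14 Rorb-/- and +/+ (lowest 0.11, highest 0.29), between P28 +/+ mice with and without the transgene, and between the ages of +/+ mice with it, but for no other comparison. The labels give no pairing, and mice of unequal number were not correlated, so pairing is not established. Tools were R 4.3.3, limma 3.58.1, Python 3.11.15, pandas 2.3.3, numpy 2.4.6 and matplotlib 3.10.9. Promoters are those of RefSeq, build GRCm38.p6.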

Additional observations from a re-analysis of the deposited data

Results flagged for a closer look

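For 22 members and for the mean of the members, each in 7 groups of 4 mice, 161 sets were examined. Of these, 10 held a mouse far from the 3 others (6.21%). Members move together in the same mice, so the sets are not independent and this share has no chance rate to be set against. In P14 Rorb-/- Irf1 was low in mouse 3 (6.86). In P14 Rorb-/- mice with the transgene, mouse 2 stood high for Irf9 (7.42), Ddx60 (5.69) and Ifih1 (6.72). In P28 +/+ Ifitm3 was high in mouse 1 (8.19), and Stat2 (5.90) and Mx1 (3.02) were low in mouse 2. In P28 Rorb-/- mouse 1 was low for Gbp2 (6.80) and high for Gbp2b (7.17), and in P28 Rorb-/- mice with the transgene mouse 1 was high for Mx1 (3.42).

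The Rorb difference of Gbp2b was larger with than without the transgene at P28, by 2.84 log2 units. That of Plscr2 was larger at P28 than at P14 without the transgene, by 1.88. With the transgene, the Rorb difference was larger at P28 than at P14, as tested by the interaction of age and genotype, for 26 members. Among the signalling genes these were Irf1 (0.50), Irf7 (1.39), Irf9 (1.45) and Stat2 (0.997). Among the sensors they were Ddx60 (2.03), Ifih1 (1.38) and Oasl2 (2.25). The antiviral effectors were Cmpk2 (1.08), Gbp2 (2.52), Gbp2b (2.90), Gbp3 (2.09), Ifit1 (3.97), Ifit2 (0.84), Ifit3 (2.72), Ifitm3 (2.99) and Samd9l (1.49). The others were Dtx3l (1.41), Parp12 (1.21), Parp14 (1.93), Trim30a (1.66), Usp18 (3.41), Lgals3bp (2.20), Ifi35 (1.21), Plscr1 (0.78), Plscr2 (2.79) and Rtp4 (3.50). The calls of Cmpk2, Stat2, Irf9 and Plscr1 were lost in 16, 12, 11 and 5 alternatives, mostly with 1 mouse left out. For Cmpk2 (-0.46 at P14, 0.61 at P28) and Stat2 (-0.31, 0.69) the P14 difference was negative and not called. That of Cmpk2 was not called at P28 either.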

How the results depend on the processing

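In the alternatives run, no called member changed sign. Called members stayed past the threshold in 3245 fits of a member and lost it in 200. Medians of the members moved by less than the spread between mice in 314 cases and by more in 1. That spread is the root mean square of the group SDs of the mean of the members. P14 Rorb-/- (0.79) dominates it, the other groups having 0.03 to 0.29. A median could thus move by much more than control mice differ and still count among the 314, so this tally does not show stable medians. Group means of the members moved by less than the SD of their own group in 20 cases and by more in 12, the latter where the choice of probe sets differed.

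Leaving out 1 mouse at a time gave 23 to 32 higher members in P14 Rorb-/- against +/+ and 31 to 32 at P28, and with the transgene 9 to 13 at P14 and 32 to 35 at P28. Between Rorb-/- mice with and without the transgene it gave 2 to 26 lower at P14 and 2 to 4 higher at P28. The interaction with the transgene gave 0 to 9 lower at P14 and 0 to 2 higher at P28. Between the ages it gave 4 to 20 higher in Rorb-/- and 33 to 35 with the transgene, and the interactions of age and genotype gave 1 to 3 without and 21 to 26 with it.

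When the fit held the compared groups alone, P14 Rorb-/- mice with the transgene had 18 members higher and 1 lower than +/+ mice with it, 0 lower than Rorb-/- mice, and P28 gave 1 higher against Rorb-/- and 0 for the interaction. Between the ages this setting gave 2 higher in +/+, 2 in Rorb-/- and 5 in +/+ mice with the transgene. Array weights gave 12 lower at P14 against Rorb-/-, 1 lower for the P14 interaction, 2 higher for the P28 interaction and 2 for that of age without the transgene. The mean of all probe sets gave 4 lower at P14 against Rorb-/-. Leaving out the dimmest 40% of genes kept 24 members, with 1 higher at P28 against Rorb-/-, 0 for the P28 interaction and 5 between the ages in Rorb-/-. A 2-fold threshold left 5 higher at P14 with the transgene. The replicate block gave 2 for the P28 interaction and 3 for that of age without the transgene. In P14 Rorb-/- against +/+, where all mice of equal number correlated above 0.1, it gave 29 higher. It changed no count in the other comparisons with such correlations. The cause of these shifts was not tested, beyond the fewer mice or genes that a setting leaves.

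RMA gives no detection calls, so members near the lower quartile, Mx1, Sp100, Plscr2, Ddx60, Gbp2b, Gbp2, Ifit1, Trim30a and Usp18 among them, have only lower bounds on their rises and no resolved absence.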
